A study of Mus musculus with 9 samples.

Results

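Small nucleolar RNAs (snoRNAs) were examined in poly(A) RNA sequencing of mouse ventricular apices, as the 31 rows of a gene count table whose symbol starts with Snora or Snord and that held at least 10 reads summed over 9 hearts. The table has 110 such rows among 23457 rows in all, of which a further 37 held 1 to 9 reads and 42 held none. The members were thus chosen by their measured reads, summed over both genotypes. Just inside the limit were Snord47, Snora21 and Snora43 with 11 reads each and Snord57 with 12, and just outside were Snord71 with 9 reads and Snord65, Snora44, Snord89, Snord61 and Snord67 with 8 each. The hearts came from 4 adult mice labelled as germline Parkin knockouts (KO) and 5 adult wild-type mice (WT), all on a C57BL/6J background, with 1 library per heart. The labels name the tissue as whole heart while the protocol describes the ventricular apex, and they give neither the knockout allele nor sex, nor the exact age. Reads of the targeted gene are not reported here, so every direction below rests on the genotype labels. The question the groups pose is which cardiac transcripts differ with the genotype.

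SnoRNAs are short nuclear RNAs that guide chemical modification of ribosomal RNA and some other RNAs. Box C/D snoRNAs (Snord) bind the methyltransferase fibrillarin and direct methylation of ribose, and box H/ACA snoRNAs (Snora) bind dyskerin and direct conversion of uridine to pseudouridine. In mammals most lie in introns of a host gene, often one for a ribosomal protein or a noncoding RNA, and are freed by splicing and trimming of the intron. Mature snoRNAs carry no poly(A) tail, so a library selected with oligo(dT) holds only what the selection let through or what was read as part of a longer tailed transcript. The libraries were not made to keep strand, and reads of a snoRNA, of its unspliced host and of a gene on the opposite strand cannot be told apart in these counts. In heart tissue, fewer cells of a type and less RNA per cell cannot be told apart either.

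The sequences of 6 of the rows on which the results below turn are given 5′ to 3′ from GENCODE vM21 on GRCm38. Capitals mark the core of the C box (TGATG) and the D box (CTGA) in the Snord rows, and the ACA box in the Snora row. The first 3 Snord rows and the Snora row were higher in the KO hearts and the other 2 were lower.
Snord83b: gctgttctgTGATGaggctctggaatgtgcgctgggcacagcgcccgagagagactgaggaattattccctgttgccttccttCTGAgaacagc
Snord22: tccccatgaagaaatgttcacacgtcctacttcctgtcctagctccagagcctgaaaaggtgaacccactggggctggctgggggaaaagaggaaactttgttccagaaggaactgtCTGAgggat
Snord35a: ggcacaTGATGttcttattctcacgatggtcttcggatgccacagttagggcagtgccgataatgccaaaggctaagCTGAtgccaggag
Snora78: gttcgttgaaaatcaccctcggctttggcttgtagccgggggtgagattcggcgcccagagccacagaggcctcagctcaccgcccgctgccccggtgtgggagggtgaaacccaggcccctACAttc
Snord82: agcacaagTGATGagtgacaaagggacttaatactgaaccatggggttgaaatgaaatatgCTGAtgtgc
Snord42b: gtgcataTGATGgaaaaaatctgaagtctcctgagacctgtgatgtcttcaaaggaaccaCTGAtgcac

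These rows lie at chr15:80078498-80078591 (Snord83b), chr7:45126346-45126435 (Snord35a), chr17:24719676-24719803 (Snora78), chr1:86356261-86356330 (Snord82) and chr11:78183056-78183124 (Snord42b), all on the minus strand, and at chr19:8725866-8725991 on the plus strand (Snord22). On the transcript strand, TGATG stood near the 5′ end (within the first 33.3% of bases) of 19 of the 21 Snord members and CTGA near the 3′ end (within the last 33.3%) of all 21. Snord22 and Snord57 lacked the exact TGATG letters. Both boxes stood together in 90.5% of Snord members, against 0.476% of 2100 miRNA genes of similar length and 0.37% of the first 100 bases of 21902 protein-coding transcripts, searched in the same way. ACA within the last 12 bases was found in all 9 Snora members searched, against 21.2% and 11.4% of those same sets, and Snora74a was not searched. The sequences thus carry the boxes of their families, and a letter match is a description only.

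The 31 members comprised 21 box C/D rows of 69 to 238 bases and 10 box H/ACA rows of 128 to 196 bases. A host row on the same strand, or of unstated strand for 3 rows in Snhg4 and Snhg7, was present for 30 of them. Only Snord104 had no host row. The hosts were 26 genes, with 12 members in 11 ribosomal protein genes, 12 in noncoding RNA genes and 6 in other protein-coding genes. Of the 27 members with a host in GENCODE, 14 overlapped an annotated exon of some host transcript and 13 lay within introns. Of those 13, 11 were within 100 bases of an exon, at a median distance of 61 bases. Members of 1 host are not independent, and 8 members shared a host with another: Snord15a and Snord15b in Rps3, Snord49a and Snord49b in 2410006H16Rik, Snora17 and Snora43 in Snhg7, and Snora16a and Snord99 in Snhg12.

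Depth was uneven. Assigned reads ranged from 11637206 to 15777844 in the KO hearts and from 4415183 to 20827699 in the WT hearts. Mitochondrially encoded rows took 10.04% to 15.4% of reads in KO hearts and 32.6% to 58.2% in WT hearts, which left 9844456 to 14088622 other reads in KO hearts and 1845431 to 14033010 in WT hearts. Rn45s, the row of the ribosomal RNA precursor, took 3.79% to 4.61% of reads in KO hearts and 0.939% to 3.57% in WT hearts. WT hearts 2 and 3 were the shallowest, and 21 members had no read in either of them. A count of 3 reads, the limit that a count of 0 allows, corresponded to 0.142 to 0.215 CPM (reads per 1000000 of the library size as scaled by trimmed mean of M values) in KO hearts and 0.134 to 1.04 CPM in WT hearts. The summed markers of cardiomyocytes reached 66880 to 74960 CPM in KO hearts and 51370 to 56540 CPM in WT hearts, and those of fibroblasts 285 to 381 CPM in KO hearts and 337 to 408 CPM in WT hearts. Those of endothelium reached 468 to 553 CPM in KO hearts and 589 to 718 CPM in WT hearts, and those of immune cells 43.4 to 67.4 CPM in KO hearts and 38.4 to 56.9 CPM in WT hearts, with no marker at 0. Single markers were called in both directions by edgeR with the filter: Myh6 and Tnni3 of cardiomyocytes were higher in KO hearts (0.55 and 0.63 on the log2 scale), Col1a1 of fibroblasts was higher (0.81) while Dcn (-1.21) and Lum (-2.12) were lower, Kdr of endothelium was lower (-0.32), and among immune markers C1qa was higher (0.89) and Cd68 lower (-1.04). Of all rows tested with the filter, 26.2% were called higher and 25.2% lower. Once GC content and length trends were removed, only Lum (-1.55), Cd68 (-1.38) and Cdh5 of endothelium (-0.54) were called among the markers, all lower. The part of depth, mitochondrial share or cell makeup in the results was not tested. The counts of called members were the same with the mitochondrially encoded rows and Rn45s left out, a refit that does not test the part of any of these.

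The members held few reads. All 31 together had 2800 reads, 1756 in KO hearts and 1044 in WT hearts, of which the 4 most read rows (Snord82, Snord83b, Snord22 and Snord55) took 64.0%. In all, 19 members had under 50 reads and 5 had at least 100. Of the members, 27 to 30 had a read in each KO heart and 8 to 24 in each WT heart. KO heart 3 was the highest KO heart for 19 of the 31 members.

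**Figure D1:**
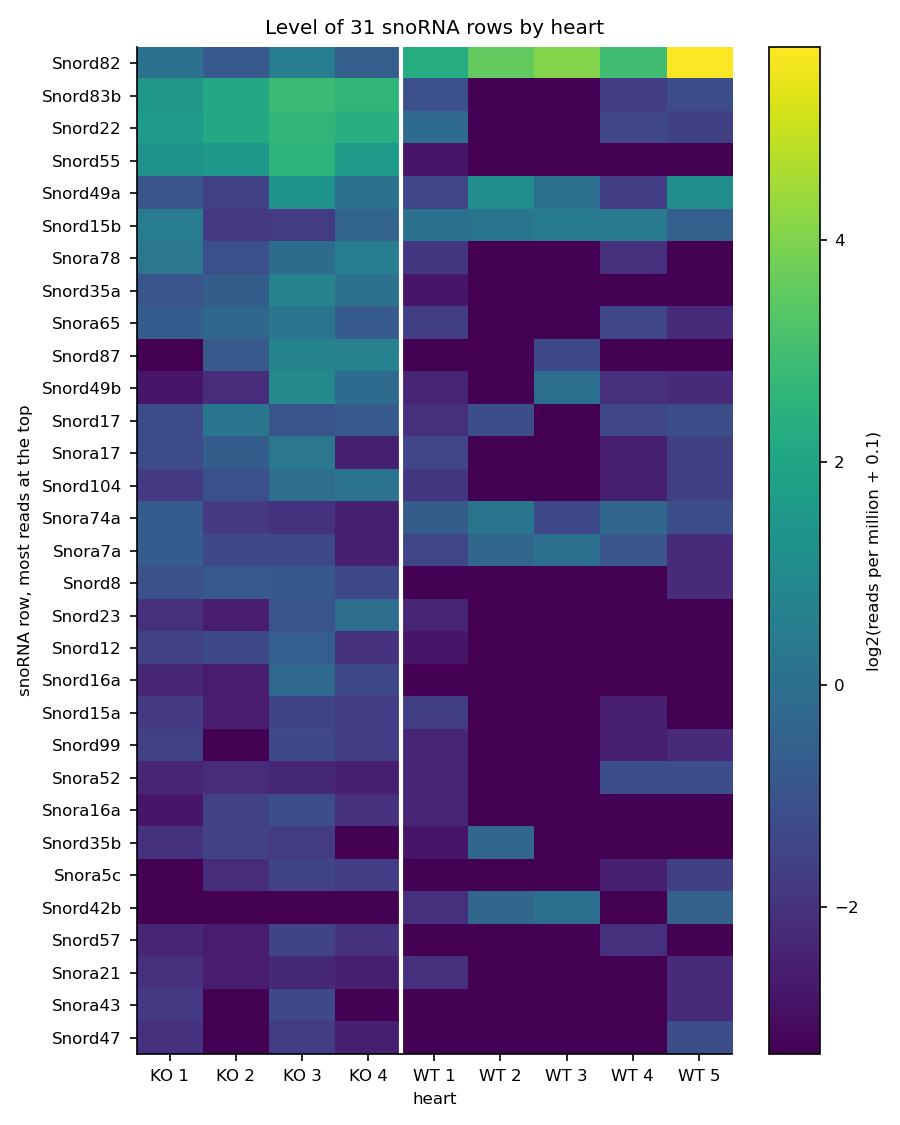
Level of the 31 snoRNA rows (down the page, most reads at the top) in 4 KO hearts and 5 WT hearts (across), with colour for log2(CPM + 0.1), darkest where a row has no read. Snord82 holds most of its reads in the WT hearts, Snord83b, Snord22 and Snord55 hold most of theirs in the KO hearts, and 21 rows have no read in WT hearts 2 and 3.

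The class as a whole did not separate the genotypes, but its makeup differed. Per 1000000 reads not encoded in mitochondria, the 31 rows summed to 25.5, 28.0, 52.8 and 36.3 reads in KO hearts 1 to 4, against 16.0, 28.7, 35.6, 20.1 and 92.9 in WT hearts 1 to 5. These ranges overlapped, and WT heart 5 was the highest of all. Snord82 alone supplied most of the WT reads. Without it, an omission chosen after its values were seen, the sums were 24.1, 27.2, 50.8 and 35.5 in KO hearts, against 8.41, 10.3, 8.77, 7.69 and 10.5 in WT hearts. The box H/ACA rows summed to 3.66 to 6.53 in KO hearts and 1.95 to 3.28 in WT hearts. No test was run on these sums, since the rows were chosen with results known.

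**Figure D2:**
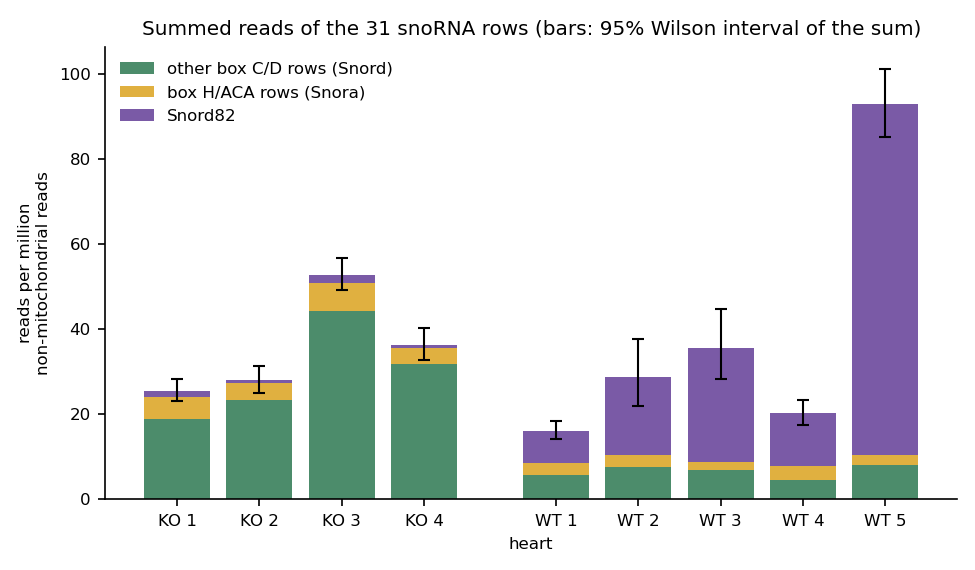
Summed reads of the 31 snoRNA rows per 1000000 non-mitochondrial reads (vertical axis) in each KO and WT heart (horizontal axis), split into other box C/D rows, box H/ACA rows and Snord82, with error bars for the 95% Wilson interval of the sum, which covers counting error only. The sums overlap between genotypes, Snord82 makes up most of the bar in WT heart 5, and the other rows sum to 24.1 to 50.8 in KO hearts and 7.69 to 10.5 in WT hearts.

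Only 6 members passed the default expression filter of edgeR (at least 0.759 CPM in 4 hearts). Of these, 3 rose in KO hearts (Snord55, Snord83b and Snord22), 1 fell (Snord82) and 2 were not called (Snord15b and Snord49a) by edgeR's quasi-likelihood test at an adjusted p of 0.05. The background was high, since 26.2% of the 12640 rows tested rose and 25.2% fell. Snord55 and Snord83b reached that limit in no WT heart and Snord22 in 1, so the count over these 6 rows supports nothing by itself. When every row with a read was tested instead (18026 rows), all 31 members entered, of which 12 rose, 2 fell and 17 were not called, beside 19.0% of all rows higher and 17.4% lower. That is 38.7% of members higher and 6.45% lower. Among the 7211 rows with 10 to 826 reads, the range of the members, 11.3% rose and 15.9% fell. The median log2 fold change of the members was 1.64, beside -0.03 over all rows, and remained 1.64 with the rows at 0 in 1 group set to their bound. A row with few reads becomes a member through whichever group holds its reads, and the members were picked in view of earlier results, so these shares describe the rows and test nothing.

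Snord55, Snord83b and Snord22 showed the plainest rises. Snord55, a box C/D snoRNA, had 51, 46, 111 and 41 reads in KO hearts 1 to 4, against 1, 0, 0, 0 and 0 reads in WT hearts 1 to 5. In CPM it averaged 3.43 ± 1.47 in KO hearts (SD, n = 4) and 0.00897 ± 0.0200 in WT hearts (SD, n = 5). The groups did not overlap, and a single WT read carried the WT value. The pooled ratio was 179-fold, with a 95% counting interval of 31.9 to 7110, and edgeR's adjusted p was 4.11e-06.

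Snord83b lies in an intron of Rpl3, a protein of the large ribosomal subunit, 72 bases from an exon. It had 56, 72, 141 and 83 reads in KO hearts, against 8, 0, 0, 3 and 3 reads in WT hearts. Every KO heart lay above every WT heart, at 5.02 ± 1.94 CPM in KO and 0.184 ± 0.177 CPM in WT. The log2 fold change was 4.19 ± 0.44 (SE) with an adjusted p of 7.98e-06 by edgeR, and the pooled ratio was 18.1-fold with a counting interval of 10.7 to 33.5. Rpl3 rose by a log2 fold change of 0.99 ± 0.17 (adjusted p = 2.38e-04 by edgeR), a smaller rise than that of the snoRNA row.

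Snord22 (U22), which in Xenopus is needed for processing of 18S ribosomal RNA, lies in Snhg1, a noncoding RNA that hosts several snoRNAs and whose spliced transcript is known to be short-lived. It had 66, 72, 117 and 70 reads in KO hearts, against 18, 0, 0, 4 and 2 reads in WT hearts. The groups did not overlap, at 4.599 ± 1.17 CPM in KO and 0.264 ± 0.330 CPM in WT, and WT heart 1 was the highest of the WT hearts. The log2 fold change was 3.39 ± 0.42 (adjusted p = 2.30e-05, edgeR), and 4.44 without WT heart 1. Its host moved the other way: Snhg1 had 5, 4, 3 and 1 reads in KO hearts, against 22, 6, 6, 18 and 8 in WT hearts, and fell by 2.72 ± 0.44 on the log2 scale (adjusted p = 1.70e-04, edgeR). Snord22 overlaps an annotated Snhg1 exon, and the called rows Snora65, Snord12, Snord16a and Snord42b, described below, likewise overlap an exon of their hosts. How reads on overlapping rows were assigned is not given in the sources used here.

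Snord82 was the row that fell, and the member with the most reads. It is a box C/D snoRNA in an intron of Ncl, the gene for nucleolin, an abundant nucleolar protein, 41 bases from an exon. It had 20, 8, 27 and 8 reads in KO hearts, against 107, 34, 55, 110 and 457 reads in WT hearts. All KO hearts were lower, at 0.95, 0.482, 1.37 and 0.573 CPM, against 4.80, 11.8, 16.3, 7.73 and 53.0 CPM in the WT hearts, among which heart 5 stood apart. The log2 fold change was -4.42 ± 0.67 with an adjusted p of 1.02e-04 by edgeR, and the pooled ratio was 0.0595 with a counting interval of 0.0452 to 0.0769. WT heart 5 held 457 of the 763 WT reads, and without it the log2 fold change was -3.44 (adjusted p = 8.34e-05, edgeR). Ncl fell by 0.74 ± 0.18 on the log2 scale (adjusted p = 0.00334, edgeR), and with GC content and length trends removed its log2 fold change was -0.11. Snora75, another snoRNA row of the table known to lie in Ncl, held no read.

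Snord49a and Snord15b passed the filter without a call. Snord49a, in an intron of the noncoding RNA 2410006H16Rik, had 9, 4, 47 and 13 reads in KO hearts, against 6, 6, 3, 3 and 18 in WT hearts. The groups overlapped, and the log2 fold change of 0.25 ± 0.73 (adjusted p = 0.789, edgeR) changed sign without KO heart 3. Snord15b, in Rps3, had 28, 3, 4 and 9 reads in KO hearts, against 21, 3, 4, 18 and 5 in WT hearts, with a log2 fold change of -0.71 ± 0.52 (adjusted p = 0.269, edgeR). It was called lower by limma-voom with quality weights (-1.72, adjusted p = 0.00605) and by edgeR without KO heart 1 (-1.58, adjusted p = 0.0172).

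**Figure D3:**
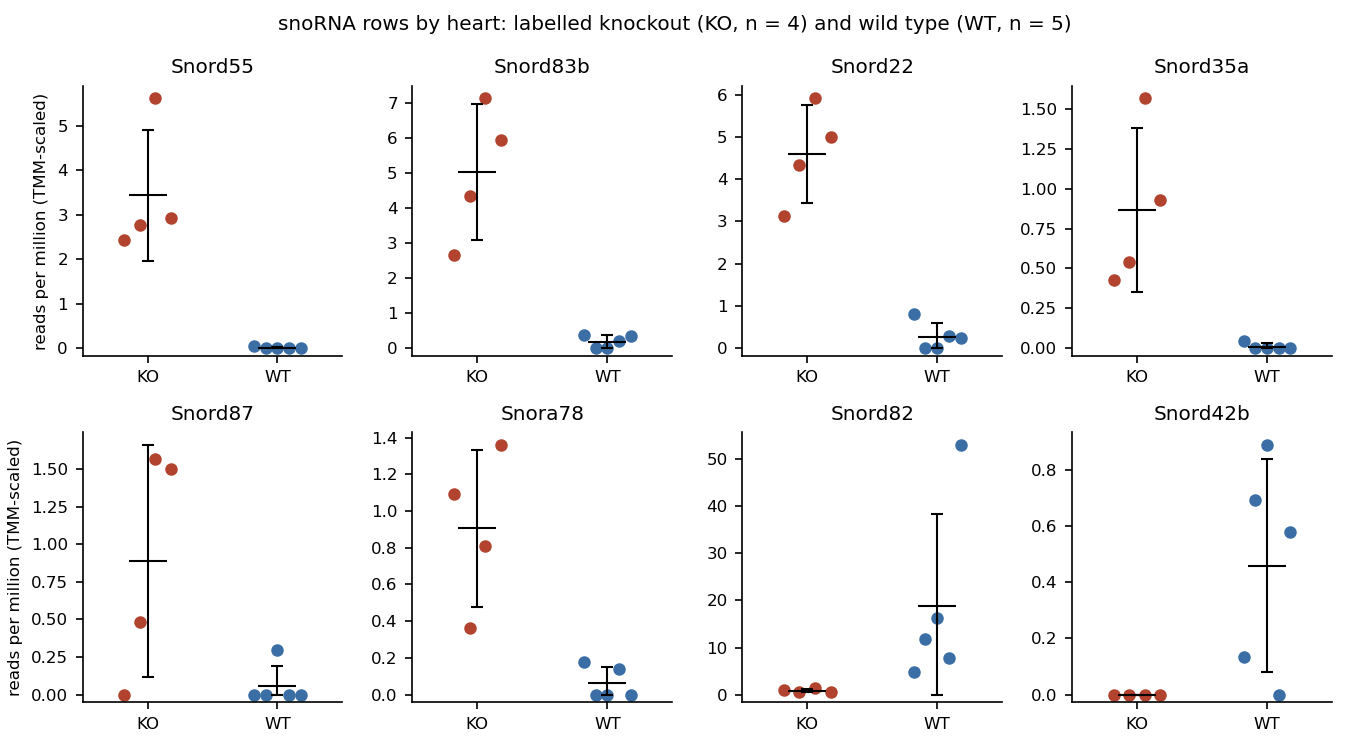
CPM (vertical axes) of 8 snoRNA rows in each KO heart (left, n = 4) and WT heart (right, n = 5), with the mean as a horizontal line and the SD as a bar whose lower end is drawn no lower than 0. Every KO heart lies above every WT heart for Snord55, Snord83b, Snord22, Snord35a and Snora78 and below for Snord82, while the groups overlap for Snord87 and Snord42b.

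Below the filter, 9 more members rose in the fit of all rows with a read. Snord35a is 1 of 4 snoRNA rows named for introns of Rpl13a, a group known from rodent cells to take part in lipotoxic stress. It had 9, 9, 31 and 13 reads in KO hearts, against 1, 0, 0, 0 and 0 in WT hearts. The pooled ratio was 44.6-fold with a counting interval of 7.72 to 1791 (adjusted p = 5.36e-05, edgeR), and Rpl13a rose by a log2 fold change of 0.89 ± 0.12. The other three held too few reads to be members: Snord32a had 2 reads in KO hearts and 4 in WT hearts, Snord34 had 3 in KO hearts and none in WT hearts, and Snord33 had none in KO hearts and 2 in WT hearts.

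Snora78 had 23, 6, 16 and 19 reads in KO hearts, against 4, 0, 0, 2 and 0 in WT hearts. All KO hearts were higher, and the log2 fold change was 2.94 ± 0.63 (adjusted p = 6.93e-04, edgeR). Its noncoding host Snhg9 was not called (0.38 ± 0.43, adjusted p = 0.481, edgeR). On the opposite strand lies Rps2, a small-subunit protein gene, at 467 ± 23.2 CPM in KO hearts and 277 ± 14.95 CPM in WT hearts, and its log2 fold change was 0.75 ± 0.11 (adjusted p = 7.44e-05, edgeR). Rps2 was not called with GC content and length trends removed (log2 fold change 0.17, adjusted p = 0.169, edgeR).

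Snora65, in Rpl12, is the other box H/ACA row that rose. It had 11, 12, 21 and 7 reads in KO hearts, against 5, 0, 0, 4 and 1 in WT hearts, with a log2 fold change of 1.90 ± 0.55 (adjusted p = 0.00887, edgeR). Without KO heart 3 the call was lost at an adjusted p of 0.05. Rpl12 rose by a log2 fold change of 0.71 ± 0.13.

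Snord87, in an intron of the noncoding RNA Snhg6, had 0, 8, 31 and 21 reads in KO hearts, against 0, 0, 1, 0 and 0 in WT hearts. KO heart 1 and 4 WT hearts shared a count of 0, so the groups overlapped although the row was called (43.2-fold, counting interval 7.46 to 1735, adjusted p = 0.00165, edgeR). DESeq2 gave it an adjusted p of 0.0529. Snhg6 had 29 reads in KO hearts and 25 in WT hearts.

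The remaining 5 rows called higher had 22 to 48 reads each. Snord8, in the chromatin remodeller gene Chd8, had 8, 8, 9 and 4 reads in KO hearts, against 0, 0, 0, 0 and 1 in WT hearts, while Chd8 fell by 0.56 ± 0.11 on the log2 scale. Snord12, in 1500012F01Rik (Zfas1), had 5, 5, 11 and 2 reads in KO hearts, against 1, 0, 0, 0 and 0 in WT hearts. Snord16a, in the ribosomal protein gene Rpl4, had 2, 1, 15 and 4 reads in KO hearts and none in WT hearts. That makes Snord16a at least 5.28-fold higher against a limit of 3 reads over the WT group with the KO count taken as measured, and the 95% counting interval over both counts has its lower end at 3.94-fold, while Rpl4 fell by 0.55 ± 0.13 on the log2 scale.

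In these 3 rows the KO hearts were all above the WT hearts, with adjusted p-values by edgeR of 0.00141 (Snord8), 0.00391 (Snord12) and 0.00694 (Snord16a). Snord23, in Gltscr2 (Nop53), had 3, 1, 8 and 12 reads in KO hearts, against 2, 0, 0, 0 and 0 in WT hearts. Snord104 had 4, 6, 17 and 14 reads in KO hearts, against 4, 0, 0, 1 and 2 in WT hearts. Both of these rows overlapped between groups. The call of Snord23 (adjusted p = 0.0184, edgeR) was lost without KO heart 4 (0.0949) or WT heart 4 (0.0581), and under DESeq2 (0.0534). That of Snord104 (adjusted p = 0.0163, edgeR) was lost without KO heart 3 (0.065), KO heart 4 (0.0616) or WT heart 4 (0.0551).

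Snord42b, in the ribosomal protein gene Rpl23a, was the second row that fell. It had no read in the 4 KO hearts, against 3, 2, 3, 0 and 5 reads in WT hearts. The row was at least 6.02-fold lower against a limit of 3 reads over the KO group with the WT count taken as measured, and the 95% counting interval of the pooled ratio over both counts reaches up to 0.236 (adjusted p = 0.00523, edgeR), and WT heart 4 shared the KO count of 0. Rpl23a rose by a log2 fold change of 0.57 ± 0.16, but was not called with GC content and length trends removed (0.44, adjusted p = 0.0566, edgeR).

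Of the 17 members not called, 13 had a positive and 4 a negative log2 fold change. Snord49b (1, 2, 36 and 11 reads in KO hearts, against 2, 0, 3, 2 and 1 in WT hearts) and Snora17 (7, 9, 22 and 1 reads in KO hearts, against 6, 0, 0, 1 and 2 in WT hearts) ranged widely among the KO hearts. Snora74a had 11, 3, 3 and 1 reads in KO hearts and 12, 3, 1, 10 and 3 in WT hearts. Over all 31 members, 9 (29.0%) had every KO heart above every WT heart and 1 (3.23%) every KO heart below. Among the 15229 rows of the table with at least 10 reads those shares were 19.1% and 16.7%. Outside the members, the 37 rows with 1 to 9 reads held 92 reads in KO hearts and 41 in WT hearts. The Snord14 rows and Snord118 (U8), which are known to act in cleavage of the ribosomal RNA precursor, held none.

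Host rows did not share the direction of their snoRNA rows throughout. Of the 11 risen members with a host row, the host was called higher in 5, lower in 3 (Snhg1, Chd8 and Rpl4) and not called in 3 in the same fit. Of the 17 members not called, the host was called higher in 7 and lower in 2. Over all rows of that fit, 19.0% were called higher and 17.4% lower. Hosts were counted once per member, so that Rps3, 2410006H16Rik, Snhg7 and Snhg12 were counted more than once. These counts describe the hosts and test nothing. Host log2 fold changes ranged from -1.85 to 1.64 among hosts of members not called.

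**Figure D4:**
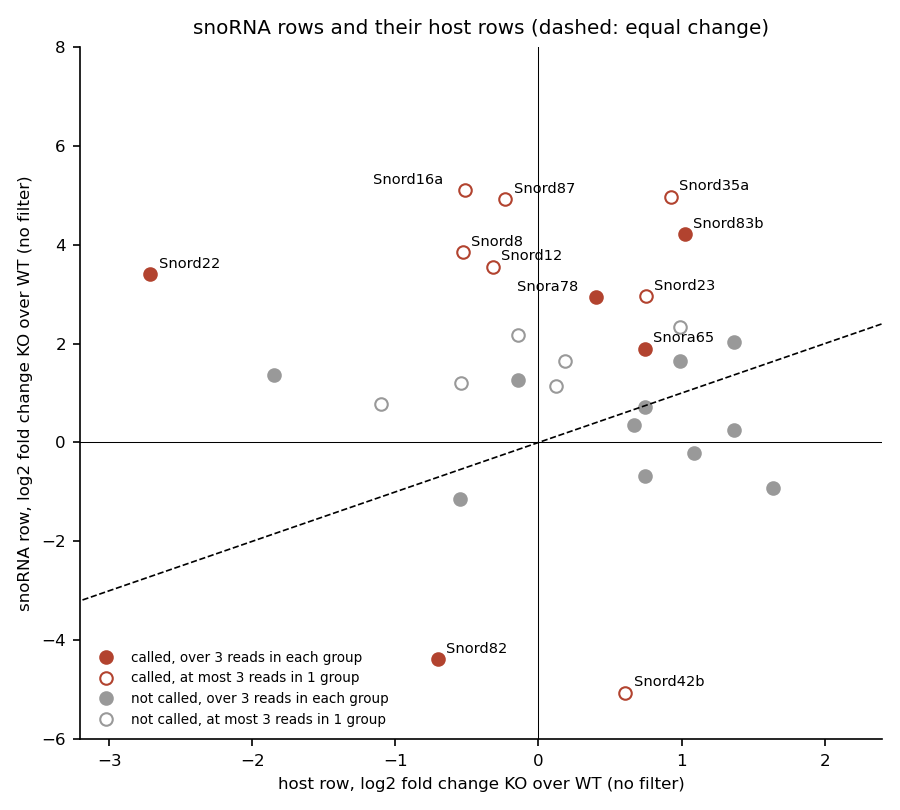
Log2 fold change, KO over WT, of snoRNA rows (vertical axis) against that of its host row (horizontal axis) in the fit of all rows with a read, with called snoRNA rows in red, open circles for rows with at most 3 reads in 1 group (fitted values, not bounds), and a dashed line of equal change. All risen rows shown lie above the line, Snord22 rose while its host Snhg1 fell, and Snord42b fell while its host Rpl23a rose.

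The ratio of snoRNA reads to host reads, which does not depend on library scaling, was tested by limma over all 82 nested pairs of rows that passed the filter. Of these pairs, 15.9% had a higher and 11.0% a lower ratio in KO hearts. Only 6 members were in a tested pair, of which 3 had a higher ratio, 2 a lower ratio and 1 was not called. The 3 higher ones are Snord55, Snord83b and Snord22, which passed the filter mainly through the KO hearts. This count therefore supports nothing by itself either. Snord22 had 325 reads beside 13 Snhg1 reads in KO hearts, against 24 beside 60 in WT hearts, a log2 ratio change of 6.86 ± 0.73 (SE, adjusted p = 1.57e-04, limma). No Snord22 read fell in WT hearts 2 and 3, so the size of the change depends on the 0.5 read added to each count. Snhg1 had so few reads that the pair was not tested without any 1 of WT hearts 1 to 4, or with a mean of at least 10 reads asked of both rows. Where it was tested the call was kept, with values from 5.92 without WT hearts 2 and 3 to 8.01 with 0.1 read added.

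Snord83b had 21.7, 43.6, 51.0 and 56.7 reads per 1000 Rpl3 reads in KO hearts, against 5.34, 0, 0, 3.06 and 5.25 in WT hearts, a change of 3.21 ± 0.40 (adjusted p = 2.97e-04, limma). This row rose by more than its host did. Snord82 had 5.81, 3.22, 9.70 and 5.21 reads per 1000 Ncl reads in KO hearts, against 29.4, 36.3, 61.1, 35.1 and 255 in WT hearts, a change of -3.30 ± 0.60 (adjusted p = 0.00175, limma). Its fall was larger than that of Ncl. The ratios of Snord22, Snord83b and Snord82 did not overlap between groups, and each had an exact two-sided permutation p of 0.00794, the smallest that 4 hearts against 5 allow. Snord22 and Snord83b passed the filter mainly through the KO hearts, and Snord82 mainly through the WT hearts. The non-overlap and the p-values of these pairs therefore describe the rows and give no separate support for the directions. In the WT hearts without a Snord83b read, the amount added to each count sets the ratio, so the size of that change depends on it.

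Snord15b had 6.99, 0.871, 0.972 and 3.23 reads per 1000 Rps3 reads in KO hearts, against 7.34, 10.1, 11.0, 8.94 and 4.36 in WT hearts. The ranges overlapped, the change was -1.92 ± 0.61 (adjusted p = 0.0362, limma; exact permutation p = 0.0159), and the call was lost or the pair not tested without any 1 of KO hearts 2, 3 and 4 and WT hearts 1, 2, 3 and 4. Snord49a relative to its host was not called (-1.49 ± 0.96, adjusted p = 0.266, limma).

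**Figure D5:**
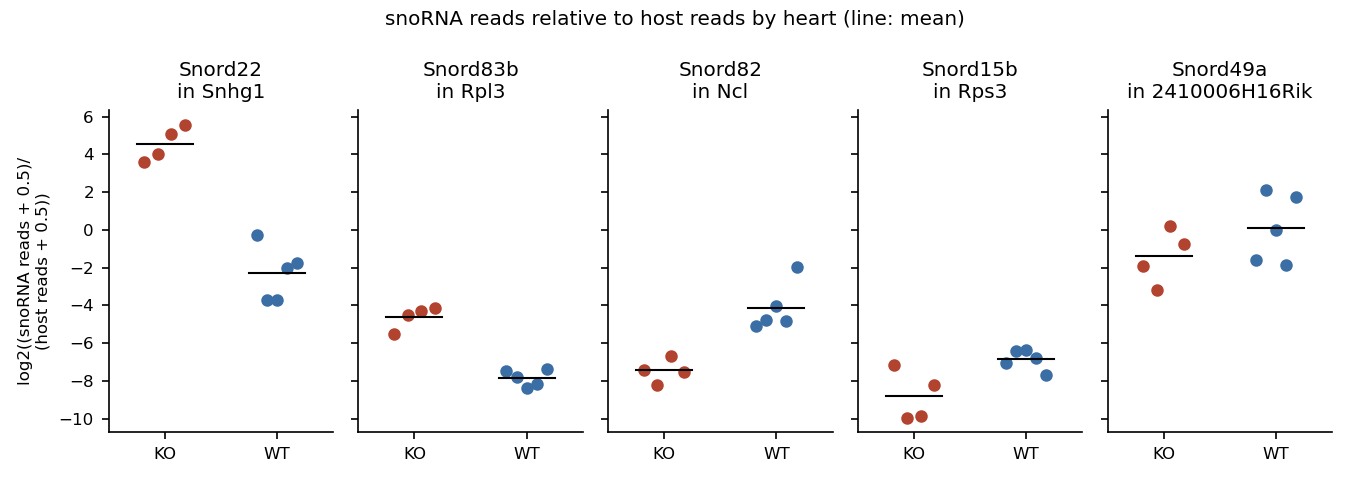
Log2 of the ratio of snoRNA reads to host reads, each with 0.5 read added (vertical axis), by heart for 5 tested pairs, with KO hearts at the left of each panel, WT hearts at the right and a line at the mean. The groups do not overlap for Snord22 and Snord83b, both higher in KO, or for Snord82, lower in KO, and they overlap for Snord15b and Snord49a.

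Calls among the members were most frequent at the highest GC content. All 5 members with a GC content of 55% or more rose in the fit of all rows with a read, against 4 of 12 from 50% to 55%, 1 of 6 from 45% to 50% and 2 of 8 from 35% to 45%, where 2 also fell. Over all rows tested, the median log2 fold change in these ranges was 0.59, 0.21, -0.20 and -0.59, so that the whole table followed GC content. The medians of the members in the same ranges were 2.97, 1.505, 0.96 and 1.45, above those of all rows in every range. The share of all rows called in each range was not computed, and the counts per range describe the members only. With GC content and length trends removed, 9 members rose and 2 fell, beside 12.4% and 14.4% of all rows. Snora65, Snord104 and Snord23 lost their calls, with log2 fold changes of 1.27, 1.81 and 2.02 and adjusted p-values by edgeR of 0.102, 0.0503 and 0.144, against log2 fold changes of 1.90, 2.097 and 2.96 before. Snora78 kept its call at a log2 fold change of 2.01. With the filter and the trends removed, where 19.0% of rows rose and 19.6% fell, Snord55, Snord83b and Snord22 remained higher (log2 fold changes of 3.38 ± 0.47 for Snord83b and 2.86 ± 0.45 for Snord22) and Snord82 lower (-3.91 ± 0.59). The correction has little to go on at this length: 187 of the rows tested were under 250 bases, 31 with the filter.

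Of 17 other rows under 250 bases with at least 10 reads, 3 (17.6%) rose and 1 (5.88%) fell, and their median was 0.33 on the log2 scale. The 10 miRNA precursor rows among them had a median of 0.55. The difference between these rows and the snoRNA rows was not tested.

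The second deposited table, in FPKM, was set beside the counts. On log2(FPKM + 1), limma called 18 members higher and 2 lower (Snord82 and Snord42b), beside 53.3% of 12637 rows called, 47.2% higher and 6.09% lower. That scale was skewed upward as a whole. With each heart centred on its median, 14 were higher and 3 lower, beside 25.4% and 28.4%. FPKM of such short rows were large: Snord82, at 8 to 27 reads, was listed at 2540 to 7221 FPKM in KO hearts, against 21900 to 172800 FPKM in WT hearts at 34 to 457 reads. The levels are therefore given in reads here.

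Genes for the proteins that bind, assemble and trim snoRNAs were read against the share of all rows called with the filter, 26.2% higher and 25.2% lower, and with the trends also removed, 19.0% higher and 19.6% lower. On lists this short, counts near those shares are no result about a list. Of the 8 core snoRNP proteins, 3 rose and 3 fell by edgeR with the filter, at a median of 0.10 (log2), beside -0.01 for all rows. Among them Nop10, a box H/ACA core protein, fell by 1.40 ± 0.30 on the log2 scale (adjusted p = 0.00137) and Nop58, a box C/D core protein, by 1.02 ± 0.24 (adjusted p = 0.00277), while the methyltransferase gene Fbl rose by 0.49 ± 0.14 (adjusted p = 0.00708). Nhp2 rose by 0.71 ± 0.24 on that scale (adjusted p = 0.0232, edgeR). With GC content and length trends removed only 1 of the 8 fell, Nop10 (-1.29 ± 0.27), and only 1 rose, Nhp2l1 (0.40 ± 0.11), which binds box C/D snoRNAs.

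Of 13 assembly factors, 4 rose and 3 fell, or 3 and 2 with trends removed. Naf1, which is needed to assemble box H/ACA particles, had 31, 28, 24 and 24 reads in KO hearts, against 103, 61, 44, 122 and 82 in WT hearts. It fell by 2.77 ± 0.36 on the log2 scale (adjusted p = 3.54e-05, edgeR), and by 2.63 ± 0.38 with trends removed. Tgs1 had a log2 fold change of -1.18 ± 0.27 (adjusted p = 0.00216, edgeR), and of -0.64 ± 0.23 with trends removed (adjusted p = 0.044, edgeR). Ruvbl2 and Pih1d1, parts of the R2TP complex that helps to assemble box C/D particles, rose by 0.98 ± 0.14 and 1.01 ± 0.16 on that scale, and by 0.38 ± 0.13 and 0.28 ± 0.13 with trends removed, where Pih1d1 was not called (adjusted p = 0.112).

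Of 17 genes of RNA decay and trimming, 4 rose and 6 fell, or 4 and 3 with trends removed. The exosome subunit Exosc4 rose by a log2 fold change of 1.20 ± 0.17, and Upf1, which acts in nonsense-mediated decay, by 0.74 ± 0.12. Papd5, the poly(A) polymerase that adds short tails to snoRNA ends, fell by 1.09 ± 0.16 on the log2 scale and the nuclear exonuclease Xrn2 by 0.82 ± 0.13. With trends removed Upf1 was not called (0.14 ± 0.10) and the other 3 kept their direction and call.

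Among 12 noncoding snoRNA hosts, 9 were tested, of which Snhg8 rose (1.21 ± 0.28) and Snhg1, Gas5 and Snhg11 fell. Gas5, the host of Snord47, fell by 1.13 ± 0.23 on the log2 scale (adjusted p = 0.00106, edgeR) and was not called with trends removed (-0.56 ± 0.25, adjusted p = 0.0944). Of 9 Scarna rows, the related guides of Cajal bodies, only Scarna17 passed the filter, at 23, 10, 11 and 4 reads in KO hearts, against 29, 0, 2, 10 and 16 in WT hearts, and it was not called (-0.68 ± 0.49, adjusted p = 0.252, edgeR). In the fit of all rows with a read, 5 of them were tested and 1 was called: Scarna13, at 18, 7, 10 and 6 reads in KO hearts, against 5, 0, 0, 1 and 1 in WT hearts, was higher (2.07 ± 0.61, adjusted p = 0.00943, edgeR). Of 9 other structured RNAs, 5 passed the filter. Only Rnu11, the U11 RNA of the minor spliceosome, was called, and it fell by 1.16 ± 0.38 on the log2 scale (adjusted p = 0.0189, edgeR), and by 1.66 ± 0.41 with trends removed. Rpph1, the RNA of RNase P, was also called lower with trends removed (-0.85 ± 0.28, adjusted p = 0.0241, edgeR), but before that its log2 fold change was 0.47 ± 0.34 (adjusted p = 0.259, edgeR).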

How the data were processed

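For each heart the authors deposited gene counts (23457 rows) and, separately, FPKM values (23369 rows). Single-end libraries without strand were made from RNA that was bound to oligo(dT) and chemically fragmented, per the labels' protocols. Per the submitters' processing notes, Cufflinks 2.1, HTSeq, TopHat2 2.0.10, TopHat, Bowtie2, edgeR and DESeq were used with mm10. For their roles, the annotation and the counting mode, nothing is stated in the sources used here.

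Counts were used as deposited. KO was compared with WT by edgeR 4.0.16 in R 4.3.3 (TMM factors, filterByExpr with at least 10 reads and 15 in total, quasi-likelihood F test, no replicate term), with Benjamini-Hochberg adjustment over all rows tested and a threshold of 0.05. All rows with a read were tested as an alternative, on which most members' calls rest. Snord8, Snord12, Snord16a, Snord23, Snord104 and Snord42b are named since that alternative called them, after their values were seen. Otherwise the rule named the members called with the filter, the 10 members with the most reads, their hosts, and from each list of related genes the called ones of smallest p, at most 4 a list. The members and lists were chosen with earlier results of these data known.

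Hosts were taken from GENCODE vM21 or RefSeq GRCm38.p6. Ratios to the host were tested with limma 3.58.1 with trend on log2 ratios (0.5 read added) over all nested pairs, and FPKM with limma on log2(FPKM + 1) for rows with a mean of at least 0.5, which understates changes of low values. Pooled ratios divide summed reads by summed scaled library sizes, and their 95% intervals, like the Wilson intervals, cover counting error only. GC content and length trends were removed with lowess offsets (span 0.3). Alternatives were RLE and upper-quartile factors, DESeq2 1.42.0, limma-voom, other filters and pseudocounts, a threshold of 0.1, each heart left out, WT hearts 2 and 3 left out, and the replicate number as a block. Their use on the fit of all rows with a read, and median-centred FPKM, were chosen after seeing the data.

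On simulated counts for 12640 genes of this design, edgeR found 79% of 2-fold and 100% of 4-fold changes, with 7.73% of calls falling on unchanged genes. Only rows that passed the filter were simulated, with few of them changed, while 51.4% of such rows were called in the data. These rates therefore do not carry over to members below the filter. No 2 hearts of a group agreed within sampling noise (chi-square per degree of freedom 5.67 to 128). Some items among the hosts and sequences are not reported here. The labels number the hearts, and p-values measure the spread between these hearts.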

Additional observations from a re-analysis of the deposited data

Results flagged for a closer look

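Among 32 groups of hearts checked (KO and WT hearts for 16 named members and the summed reads, without groups all at 0), 9 had 1 heart far above the rest by Dixon's 95% criterion, which chance gives in about 1 in 20 groups of continuous values. In WT heart 5, Snord82 stood at 53.0 CPM, against 16.3 CPM in the next WT heart, and the summed snoRNA rows at 92.9 reads per 1000000 non-mitochondrial reads, against 35.6 in the next. In KO heart 3, Snord55 stood at 5.61 CPM, against 2.94 CPM in the next KO heart. The other 6 are WT groups in which a single heart held every read, so that the counts of 0 in the rest fix the flag: WT heart 1 for Snord12, Snord35a and Snord55 (0.0448 CPM each, 1 read) and for Snord23 (0.0897 CPM), WT heart 5 for Snord8 (0.116 CPM) and WT heart 3 for Snord87 (0.296 CPM). The cause of these values was not tested.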

How the results depend on the processing

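Depth limits these rows: calls below the filter rest on 13 to 70 reads, and 3 reads stand for 1.04 CPM in WT heart 2 and 0.889 CPM in WT heart 3. With the filter, Snord55, Snord83b and Snord22 stayed higher and Snord82 lower under every alternative run. Counts of members called moved with 12 higher and 2 lower when no filter was used and 2 lower with limma-voom, and leaving out 1 heart gave 3 to 4 higher and 1 to 2 lower. In the fit of all rows with a read, leaving out 1 heart gave 10 to 15 higher and 2 to 4 lower. For the ratio to the host, 1 rather than 2 members was lower with 0.1 read added, without WT hearts 2 and 3, and with the replicate block, and leaving out 1 heart gave 2 to 3 higher and 1 to 2 lower. Snord15b was the row that lost its call or its test, and the count of 2 higher arose where the Snord22 pair did not pass the filter (without WT heart 1, 2, 3 or 4, and with a mean of at least 10 reads in both rows). In FPKM, leaving out 1 heart gave 13 to 17 higher and 2 to 4 lower. The causes were not tested. Snord49a, never called, changed sign. With the filter its log2 fold change was -0.0339 under DESeq2, ran from -0.73 to 0.54 when 1 heart was left out, and was negative without KO heart 3 (-0.73), WT heart 1 (-0.19) or WT heart 4 (-0.16). In the fit of all rows with a read it was -0.0231 under DESeq2 and ran from -0.73 to 0.98, negative without the same hearts (-0.73, -0.17 and -0.15), and in FPKM it ran from -0.10 without KO heart 3 to 1.004. Replicate numbers showed no sign of pairing the hearts: deviations of hearts with the same number correlated at -0.11, 0.04, -0.06 and -0.26, and only KO heart 2 correlated best with its own number. A shared origin of hearts is not given in the labels and was not tested. With the number as a block, 3 members were higher and 1 lower with the filter, 8 and 2 without it, where Snora65, Snord104, Snord12 and Snord23 were not called (adjusted p-values by edgeR of 0.0887, 0.055, 0.0834 and 0.0714), and 21 and 2 in FPKM.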
